A study of Mus musculus with 6 samples.

Results

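Elastic fibres and the microfibrils that surround them were followed in mouse bone through 10 genes: Eln, Fbn1, Fbn2, Fbln1, Fbln2, Fbln5, Emilin1, Mfap2, Mfap4 and Mfap5. The members were taken as all probe sets that the platform annotation gives to 1 of these symbols. This found 18 probe sets for 9 of the 10 genes, out of 18194 genes that probe sets of 1 symbol name in all. Fbn1 has no probe set under its symbol in the annotation used here, so its signal was not analysed. All 9 genes passed the filter on signal with at least 1 probe set, as did 12326 genes in all, and of several tested probe sets that of highest mean over the arrays stands for the gene below.

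The study compared skull and limb bone. RNA of calvaria, mandible and ulna of untreated adult male mice (24 to 26 grams, given as Black CD57) was hybridised to 6 Affymetrix mouse arrays, 2 for each site. Calvaria was taken without its sutures, mandible with the teeth in place, and ulna after removal of soft tissue and epiphyses. The mice were 10, in 2 groups and skeletally mature. Their age in weeks, the number of mice behind an array and any pooling of RNA are not given in the sources used here, so p-values measure only the spread between arrays, which may be technical. These are bulk samples, in which fewer cells of a type and less RNA per cell cannot be told apart.

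An elastic fibre has a core of cross-linked elastin inside a mantle of microfibrils, which are built from fibrillins. Microfibril-associated glycoproteins bind to the fibrillins, fibulins and EMILIN-1 sit where elastin meets the microfibril, and lysyl oxidases cross-link the elastin. Microfibrils also occur without elastin, as in the periodontal ligament, and they hold latent TGF-beta through its binding proteins.

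Most of the measured genes had more signal in both skull bones than in ulna. The fibrillin gene Fbn2, the fibulin genes Fbln1 and Fbln2, and the microfibril-associated glycoprotein genes Mfap2 and Mfap5 were higher in calvaria and in mandible, by 2.47-fold to 21.4-fold. Mfap4, a fibrinogen-domain protein of microfibrils, was higher in calvaria than in both other sites. Eln itself differed less, by 1.69-fold in calvaria and 1.44-fold in mandible, and Fbln5 was not called in any comparison.

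Promoter windows are shown for 3 genes that were higher in both skull bones and for Fbln5, which was not called, so that their letters can be set side by side. Each holds the 250 bases before a transcription start in RefSeq (GRCm38.p6), from 5′ to 3′ on the strand of the gene. Capitals mark the GC box GGGCGG and the CCAAT box, each searched on both strands. The windows are chr4:141010431-141010680 (plus strand) for Mfap2, chr6:91212514-91212763 (plus strand) for Fbln2, chr15:85205758-85206007 (plus strand) for Fbln1 and chr12:101819120-101819369 (minus strand) for Fbln5.
Mfap2: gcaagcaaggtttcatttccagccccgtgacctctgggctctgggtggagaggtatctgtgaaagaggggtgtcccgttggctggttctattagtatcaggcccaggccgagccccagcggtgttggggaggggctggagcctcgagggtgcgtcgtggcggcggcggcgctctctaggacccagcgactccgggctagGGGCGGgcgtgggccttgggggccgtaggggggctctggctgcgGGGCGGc
Fbln2: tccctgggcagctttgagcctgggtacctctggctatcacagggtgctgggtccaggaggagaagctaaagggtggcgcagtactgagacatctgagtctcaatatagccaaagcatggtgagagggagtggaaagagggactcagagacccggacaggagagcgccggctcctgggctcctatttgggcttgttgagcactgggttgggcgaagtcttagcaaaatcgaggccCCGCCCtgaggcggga
Fbln1: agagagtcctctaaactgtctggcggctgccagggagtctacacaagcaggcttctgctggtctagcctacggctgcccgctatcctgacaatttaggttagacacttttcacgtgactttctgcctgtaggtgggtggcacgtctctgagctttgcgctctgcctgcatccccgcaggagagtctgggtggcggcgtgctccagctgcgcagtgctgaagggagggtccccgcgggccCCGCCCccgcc
Fbln5: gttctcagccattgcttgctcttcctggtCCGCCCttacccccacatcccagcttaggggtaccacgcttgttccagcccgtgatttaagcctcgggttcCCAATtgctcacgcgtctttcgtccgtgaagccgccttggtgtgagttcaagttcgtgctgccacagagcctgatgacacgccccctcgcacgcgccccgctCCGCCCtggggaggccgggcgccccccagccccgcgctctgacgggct

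All 4 windows hold a GC box, which is present in 32.74% of the 32851 windows of this length in the table. The Mfap2 window has 2 of them, starting at -51 and -7 from the start, the Fbln2 window 1 at -16 and the Fbln1 window 1 at -11. The Fbln5 window has 2, at -221 and -48, with a CCAAT box at -150, a motif that 33.85% of all windows hold. The share of G and C was 68.8% for Mfap2, 58.8% for Fbln2, 62.4% for Fbln1 and 65.2% for Fbln5, against a median of 52.4% over all windows. A TATA box (TATAAA, 12.37% of all windows), an AP-1 site (TGANTCA, 6.749%), a TEAD site (GGAATG, 12.64%) and a Runx site (ACCACA, 14.05%) were also searched on both strands, and none lies in the 4 windows shown. Member windows on chromosome 18, which holds Fbn2, were left out, while the shares over all windows keep that chromosome. No window was available for Eln, Mfap4 and Mfap5. This left 9 windows of 6 members, Fbn1 among them, with a second start for Mfap2, Fbln1 and Fbln5. Of the 9, 5 hold a GC box, all but that of Emilin1 and the other windows of these 3 genes. The starts shown for these 3 genes are thus those with a GC box. Their other windows had a share of G and C of 51.2% for Mfap2, 46.4% for Fbln1 and 49.6% for Fbln5, under the median of 52.4%. The other Mfap2 window holds a CCAAT box at -105 and a TEAD site at -176. Matches to these letters are a description of the windows.

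Signal is the deposited intensity on a linear scale, and each array had been scaled to a trimmed mean of 100. Differences are in log2 of signal over the median of the array, which lay between 30.6 and 33.6, and were fitted with limma. To be called, a gene needs a change of 2-fold or more besides an adjusted p under 0.05. Arrays of the same site correlated with r from 0.952 to 0.956 across probe sets and arrays of different sites with r from 0.797 to 0.862, a description across probe sets that are not independent.

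**Figure D1:**
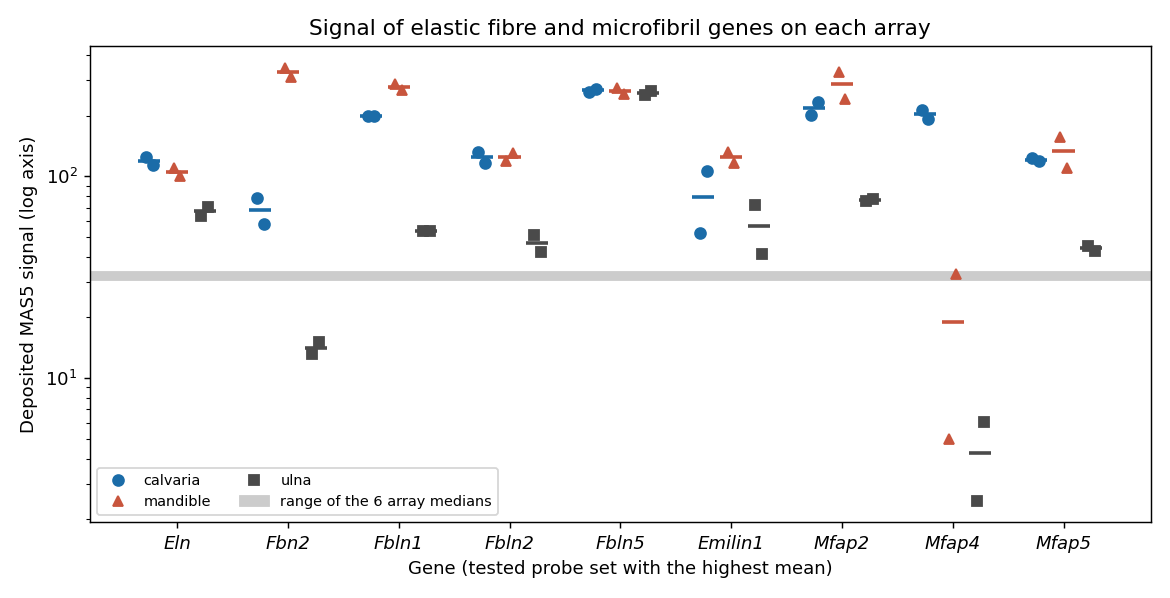
Deposited signal (log axis) of each gene on the 6 arrays, 1 point per array, coloured by site, 1 probe set per gene. Ulna lies lowest for Fbn2, Fbln1, Fbln2, Mfap2 and Mfap5, Mfap4 is high on the 2 calvaria arrays alone (213 and 192), and the 6 points of Fbln5 lie between 254 and 273.

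Eln encodes tropoelastin, the soluble precursor of the elastic core. Its signal was 124 and 114 in calvaria, 110 and 99.9 in mandible, and 63.7 and 70.4 in ulna. The 4 skull arrays lay above both ulna arrays, and the calvaria arrays above the mandible arrays. The log2 difference from ulna was 0.75 in calvaria (SE 0.18, 95% interval 0.35 to 1.15, adjusted p = 0.00980) and 0.53 in mandible (0.13 to 0.93, adjusted p = 0.0362), both under 2-fold. Between mandible and calvaria it was -0.22 (-0.63 to 0.18, adjusted p = 0.430). With 1 array left out, the calvaria difference missed the adjusted p without calvaria replicate 1 (0.0685) or ulna replicate 1 (0.0508), and the mandible difference missed it whichever array was left out (0.0505 to 0.148). A second probe set of Eln lay below the filter, with signals from 2.85 to 31.2.

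Fbn2 encodes fibrillin-2, a microfibril protein made mainly in development. Its signal was 78.4 and 58.3 in calvaria, 346 and 309 in mandible, and 13.2 and 15.1 in ulna. The sites did not overlap, in the order mandible, calvaria, ulna, and both ulna arrays lay under the array median, where the log2 difference is not exact. The log2 difference from ulna was 2.19 in calvaria (SE 0.24, 95% interval 1.66 to 2.71, adjusted p = 5.18e-05) and 4.42 in mandible (3.89 to 4.95, adjusted p = 1.72e-07). Mandible exceeded calvaria by 2.23 (1.71 to 2.76, adjusted p = 7.41e-05), which is 4.70-fold. With an offset of 0.25 added before log2, the differences from ulna were 1.72 and 3.83. The second probe set kept the order of the sites, with signals of 50.8 and 55.5 in calvaria, 189 and 155 in mandible, and 7.06 and 18.2 in ulna. On that probe set all 3 differences were called, at 2.15 (adjusted p = 0.00253) for calvaria against ulna, 3.80 (2.81e-05) for mandible against ulna and 1.65 (0.0150) for mandible against calvaria.

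Mfap2 and Mfap5 encode the microfibril-associated glycoproteins MAGP-1 and MAGP-2, small proteins that bind fibrillin. The signal of Mfap2 was 201 and 234 in calvaria, 329 and 242 in mandible, and 75.5 and 77.4 in ulna. Every skull array lay above both ulna arrays, and both mandible arrays above both calvaria arrays. The log2 difference from ulna was 1.43 in calvaria (SE 0.17, 95% interval 1.06 to 1.80, adjusted p = 8.58e-05) and 1.77 in mandible (adjusted p = 1.00e-05). Mandible and calvaria differed by 0.34 (-0.03 to 0.71, adjusted p = 0.180). A second probe set was called for both differences from ulna as well, at 2.06 (0.00855) and 1.94 (0.00764). Its ulna signals of 29.7 and 10.4 lay under the array median, so these sizes are not exact.

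The signal of Mfap5 was 123 and 119 in calvaria, 157 and 110 in mandible, and 45.2 and 42.7 in ulna. Both skull sites lay above ulna on every array, and the mandible arrays lay on either side of the calvaria arrays. The log2 difference from ulna was 1.38 in calvaria (SE 0.21, adjusted p = 0.000578) and 1.46 in mandible (adjusted p = 0.000238), and that between mandible and calvaria was 0.08 (-0.39 to 0.54, adjusted p = 0.841). The second probe set of Mfap5 was not called, with 0.57 (0.147) in calvaria and 0.51 (0.162) in mandible.

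Mfap4 encodes a microfibril-associated protein with a fibrinogen-related domain that binds elastin and collagen. Its signal, from the only probe set of the gene, was 213 and 192 in calvaria, 4.98 and 32.8 in mandible, and 2.47 and 6.09 in ulna. Calvaria stood apart from the other sites, while mandible and ulna overlapped and all 4 of their arrays lay under the array median. The log2 difference was 5.63 for calvaria against ulna (SE 0.84, 95% interval 3.76 to 7.49, adjusted p = 0.000522) and -4.02 for mandible against calvaria (-5.89 to -2.16, adjusted p = 0.00594). For mandible against ulna it was 1.60 (-0.26 to 3.47, adjusted p = 0.151). The sizes are not exact at signals this low: with an offset of 0.25 before log2, calvaria against ulna was 4.07 (adjusted p = 3.01e-05), and without ulna replicate 1 or 2 it was 4.97 or 6.29. The difference between mandible and calvaria was -2.66 without mandible replicate 1 and -5.39 without mandible replicate 2, and it was not called without calvaria replicate 1 (adjusted p = 0.0840) or 2 (0.0721). Mandible against ulna passed only without mandible replicate 1 (2.97, adjusted p = 0.00613).

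Fibulins are calcium-binding glycoproteins that link elastin, fibrillin and basement membranes. The signal of Fbln1 was 198 and 199 in calvaria, 288 and 268 in mandible, and 53.8 and 53.6 in ulna. The sites did not overlap, with mandible highest and ulna lowest. Fbln1 was higher than in ulna by 1.81 in calvaria (SE 0.14, 95% interval 1.50 to 2.12, adjusted p = 3.71e-06) and by 2.25 in mandible (adjusted p = 4.77e-07) on the log2 scale. The difference between mandible and calvaria was 0.44 (0.13 to 0.76, adjusted p = 0.0459), under 2-fold, and missed the adjusted p without any calvaria or mandible array (0.114 to 0.198). It was -0.22 and -0.52 on the other probe sets. The second probe set was called for both differences from ulna, at 2.05 (0.000558) and 1.83 (0.000721), and the third, with signals from 5.32 to 37.0, was not, at 1.70 (0.0920) and 1.17 (0.199).

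The signal of Fbln2 was 132 and 116 in calvaria, 119 and 131 in mandible, and 51.3 and 42.4 in ulna. Both skull sites lay above ulna and overlapped each other. The log2 difference from ulna was 1.33 in calvaria (SE 0.19, adjusted p = 0.000437) and 1.30 in mandible (adjusted p = 0.000304), and that between mandible and calvaria was -0.03 (-0.46 to 0.40, adjusted p = 0.938). A second probe set of Fbln2 was below the filter. Its signals ran from 1.69 in calvaria to 21.2 in mandible, and calvaria lay under ulna on it.

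Fbln5 encodes a fibulin that is required for elastic fibre assembly. Its signal was 262 and 271 in calvaria, 273 and 254 in mandible, and 254 and 266 in ulna, and all 3 sites overlapped. The log2 difference was -0.04 for calvaria against ulna (SE 0.11, 95% interval -0.29 to 0.21, adjusted p = 0.822), -0.10 for mandible against ulna (-0.34 to 0.15, 0.521) and -0.06 for mandible against calvaria (-0.30 to 0.19, 0.775). The intervals allow a difference of less than 2-fold in either direction. Its sign changed with the scaling of the arrays.

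Emilin1 encodes EMILIN-1, an elastin-microfibril interface protein that restrains TGF-beta processing. Its signal was 52.1 and 107 in calvaria, 132 and 116 in mandible, and 71.9 and 41.1 in ulna. Both mandible arrays lay above both ulna arrays, while the calvaria arrays overlapped ulna and lay under both mandible arrays. The log2 difference from ulna was 1.07 in mandible (SE 0.34, 95% interval 0.31 to 1.83, adjusted p = 0.0265) and 0.38 in calvaria (-0.38 to 1.14, adjusted p = 0.450). Between mandible and calvaria it was 0.69 (-0.06 to 1.45, adjusted p = 0.184). The mandible call was lost without ulna replicate 2 (0.68, adjusted p = 0.187), without mandible replicate 1 (0.99, 0.129) or 2 (1.16, 0.0787), with the offset of 0.25 (0.97, under 2-fold) and without the variance trend (adjusted p = 0.115). Mandible against calvaria was called without calvaria replicate 2 (1.21, adjusted p = 0.0450).

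Counted over the genes, 6 of 9 were higher in calvaria than in ulna (Fbn2, Fbln1, Fbln2, Mfap2, Mfap4 and Mfap5) and 0 were lower. Of the 12326 genes tested, 8.36% were called higher in calvaria and 4.54% lower. The median log2 difference was 1.38 over the 9 genes and -0.05 over all genes tested. Both calvaria arrays lay above both ulna arrays for 7 of the 9 genes. By limma, 0 of the 9 were lower, and the 7 with an unadjusted p under 0.05 all had a positive difference. The shares of all genes tested that separate in this way or reach that p were not computed, so these counts are a description only.

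In mandible, 6 of 9 were higher than in ulna (Fbn2, Fbln1, Fbln2, Emilin1, Mfap2 and Mfap5) and 0 were lower by limma, while 11.0% of all genes tested were called higher and 10.9% lower. The median log2 difference was 1.46 over the 9 genes and -0.08 over all genes. Both mandible arrays lay above both ulna arrays for 7 genes, and the 7 with an unadjusted p under 0.05 again all had a positive difference. The shares over all genes were not computed for these counts either. Both comparisons use the same ulna arrays, so their counts are not separate evidence. Mandible against calvaria gave 1 gene higher, Fbn2, and 1 lower, Mfap4, with 5.14% of all genes called higher and 4.01% lower. The median there was 0.08 over the 9 genes and -0.09 over all genes.

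Fbn2 and Mfap4 passed the filter on signal through the sites where they are high, and their calls rest on that. Of the 7 genes that lay above the array median on all 6 arrays, 4 were higher in calvaria than in ulna, 5 were higher in mandible and 0 were called by limma between mandible and calvaria, where Fbln1 passed the adjusted p under 2-fold. For all tested genes above the median on all 6 arrays the shares called were not computed, so these counts are a description only.

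**Figure D2:**
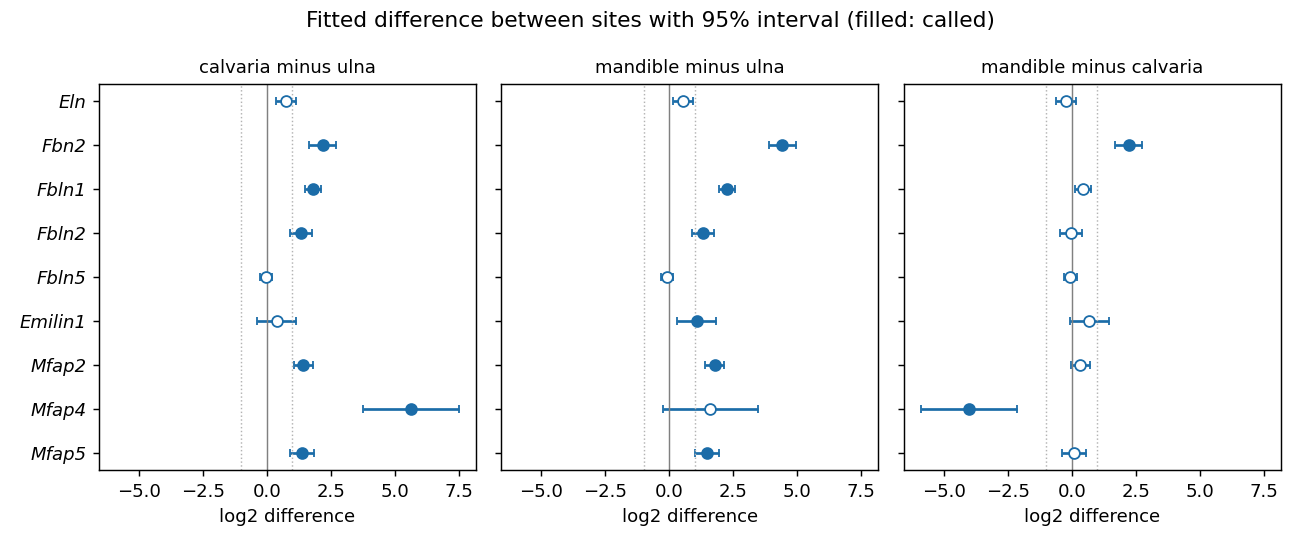
Fitted log2 difference of each gene for calvaria against ulna, mandible against ulna and mandible against calvaria, with its 95% interval, where filled points are called and dotted lines mark 2-fold. The intervals of Fbn2, Fbln1, Fbln2, Mfap2 and Mfap5 lie above 0 in both comparisons with ulna, that of Mfap4 is the widest, and between mandible and calvaria Fbn2 (2.23) and Mfap4 (-4.02) are called.

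Probe sets of the same gene did not always give the same difference. Of 18 probe sets, 14 were tested and 4 lay below the filter, and 8 genes had several, 4 of them several that were tested. For Fbn2, Fbln1 and Mfap2 a second probe set was called in the same direction for both comparisons with ulna. For Mfap5 it was not called, and for Fbln2 the second probe set, at low signal, went the other way in calvaria, as did that of Emilin1, also below the filter (-0.30 against 0.38). Mfap4 had a single probe set.

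Other genes of the elastic fibre were taken as 8 lists of 50 genes, of which 45 have a probe set and 42 passed the filter. In calvaria 16 were higher than in ulna and 1 was lower, with a median log2 difference of 0.71. In mandible 17 were higher than in ulna and 6 lower, with the same rounded median of 0.71. Mandible against calvaria gave 3 higher and 4 lower, with a median of -0.02. The background shares and medians over all genes are those given above.

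Lysyl oxidases cross-link elastin and collagen. Lox, the founding member, had signals of 1204 and 1262 in calvaria, 2046 and 1912 in mandible, and 188 and 179 in ulna, and the sites did not overlap. Its log2 difference from ulna was 2.67 in calvaria (adjusted p = 1.60e-09) and 3.31 in mandible (8.18e-10). Of the 5 cross-linking genes tested (median 1.69 in calvaria), Lox, Loxl1 (1.69, 7.35e-07), Loxl3 (1.45, 2.43e-05) and Loxl4 (2.13, 0.0151) were higher in calvaria than in ulna. Lox and Loxl4 (2.97, 0.00144) were higher in mandible, where Loxl1 (0.85, 9.23e-05) and Loxl3 (0.48, 0.0198) passed the adjusted p under 2-fold. Atp7a, the copper transporter that loads lysyl oxidases, was not called, with 0.16 and 0.10. The ulna signal of Loxl4 was 15.4 and 4.62, under the array median, and the calvaria difference was 2.99 without ulna replicate 1 and 1.27 without ulna replicate 2. The call was lost without calvaria replicate 1 (adjusted p = 0.0596) or 2 (0.0873).

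Of the other fibulin family genes, all 3 tested exceeded ulna in calvaria. Hmcn1, a giant fibulin also known as hemicentin-1, differed by 2.29 (adjusted p = 3.11e-05), Efemp1, or fibulin-3, by 1.51 (3.04e-06) and Fbln7 by 1.03 (0.00305). Both ulna signals of Hmcn1 (24.3 and 21.1) lay under the array median, so its size is not exact, and it was 1.96 in calvaria with the offset of 0.25. Hmcn1 (1.96, 5.84e-05) and Fbln7 (1.61, 8.73e-05) were higher in mandible as well, and Efemp1 was lower in mandible than in calvaria (-1.04). Fbln7 fell under 2-fold in calvaria without calvaria replicate 2 (0.84).

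The other EMILIN and multimerin genes had negative differences. Of 3 tested, Mmrn1, a multimerin of platelets and endothelium, was lower in calvaria (-1.50, adjusted p = 1.75e-05) and in mandible (-1.88) than in ulna. Emilin2 was lower in mandible than in ulna (-1.27) and passed the adjusted p under 2-fold in calvaria (-0.50, adjusted p = 0.00734). Mmrn2, an endothelial multimerin, was not called in either, with -0.20 and -0.11.

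Among 7 latent TGF-beta binding protein and TGF-beta genes, calvaria exceeded ulna for 2 and mandible for 3, and 0 were lower by limma, since Ltbp1 (-0.38 and -0.52), Tgfb1 in calvaria (-0.46, adjusted p = 0.0447) and Ltbp2 in mandible (-0.65, adjusted p = 0.0250) passed the adjusted p under 2-fold. The ligand Tgfb3 was higher in calvaria (1.49, adjusted p = 6.10e-05) and in mandible (2.35). Tgfb2 (1.45) and Ltbp4, a binding protein that takes part in elastic fibre assembly (1.47, 0.000370), were higher in mandible, with 0.46 and 0.79 in calvaria. Ltbp2, a fibrillin-1 binding protein, had signals of 233 and 210 in calvaria, 70.3 and 57.1 in mandible, and 77.8 and 107 in ulna. It was higher in calvaria than in ulna (1.20, 0.00121) and lower in mandible than in calvaria (-1.84), and without ulna replicate 1 the first difference fell to 0.96, under 2-fold.

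Of the 7 ADAMTS and ADAMTS-like genes tested, 0 were called by limma between calvaria and ulna, with 2 at an unadjusted p under 0.05. Thsd4, or ADAMTSL-6, which binds fibrillin-1, had signals of 33.4 and 31.4 in calvaria, 203 and 174 in mandible, and 32.6 and 21.4 in ulna. Mandible stood above the other sites on every array, by 2.71 over ulna and 2.49 over calvaria on the log2 scale. Adamtsl2, which binds LTBP-1 and fibrillins, was also higher in mandible, by 1.65 over ulna (adjusted p = 0.000708) and by 1.61 over calvaria.

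Of 4 matrix proteoglycan genes, 3 were higher than in ulna in both skull sites. These were Bgn, encoding biglycan (2.20 in calvaria and 1.69 in mandible), Dcn, encoding decorin (2.17 and 1.93), and Vcan, encoding the fibrillin-binding proteoglycan versican (1.31 and 3.05). Vcan was higher in mandible than in calvaria by 1.75. Hspg2, encoding perlecan, was not called, with 0.50 and 0.61.

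Of 6 integrin genes, Itgb5 (1.49 in calvaria and 1.25 in mandible) and Itga8 (1.35 in both), subunits of receptors for RGD sites, were higher in both skull sites than in ulna. Itgav passed the adjusted p under 2-fold against ulna, at 0.91 (adjusted p = 6.36e-06) in calvaria and 0.88 (5.29e-06) in mandible. Itgb3, which osteoclasts carry in the vitronectin receptor, was lower in mandible than in ulna (-1.86). In calvaria Itgb3 passed the adjusted p under 2-fold (-0.86, adjusted p = 5.84e-05). Its signal of 222 and 208 in mandible was also called lower than the 418 on both calvaria arrays, and this fell under 2-fold without mandible replicate 2. Among 7 proteases that cleave elastin, Mmp2, or gelatinase A (2.65 and 2.68), and Ctsk, the collagen and elastin protease of osteoclasts (2.65 and 1.80), were higher in calvaria and in mandible than in ulna. Ctsl, a lysosomal cysteine protease, was higher in mandible (1.25). The neutrophil protease genes Prtn3 (-1.66) and Elane (-1.19) and the macrophage protease gene Ctss (-1.06) were lower in mandible than in ulna. Calvaria against ulna passed the adjusted p under 2-fold for Ctsl (0.80), Prtn3 (-0.71) and Ctss (-0.48), but not for Elane (-0.23, adjusted p = 0.0944). Mmp9 was lower in mandible than in calvaria (-1.02), and fell under 2-fold there without calvaria replicate 1 or without mandible replicate 2.

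**Figure D3:**
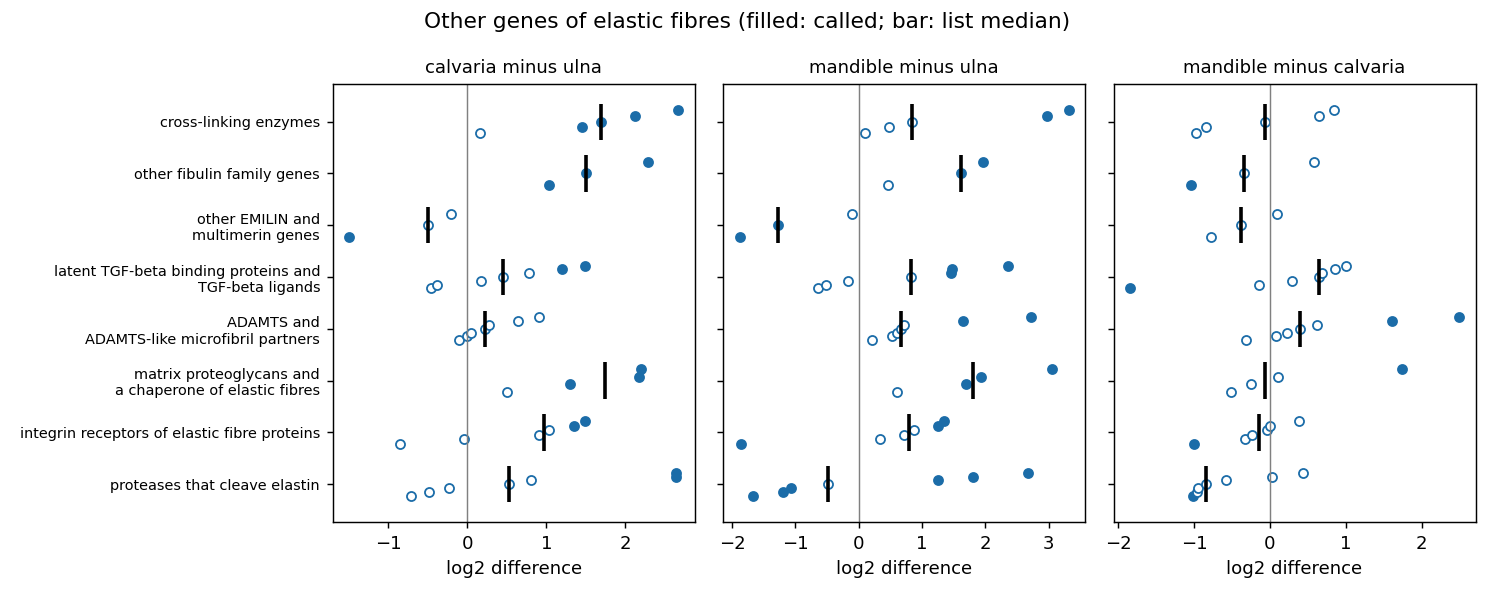
Log2 difference of each tested gene of the 8 lists, by list and comparison, where filled points are called and the bar is the median of the list. The cross-linking enzymes (median 1.69) and the proteoglycans (1.74) lie to the right in calvaria against ulna, and the EMILIN and multimerin genes (-0.50) to the left.

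Bone RNA holds other cell types, and the lists of markers did not all move in the same direction between sites. All 5 osteoblast markers tested were higher in both skull sites than in ulna, with a summed signal of 28391 to 32213 in calvaria, 27932 to 28909 in mandible and 6014 to 6231 in ulna, so the labelled tissue carried its markers at every site. Of 7 fibroblast markers, 6 were higher in calvaria and 3 in mandible, with 1 lower there, and the sum was 17259 to 17649, 19935 to 20472 and 4166 to 4501. Col3a1 and Lum made up most of the sum at each site. In mandible against calvaria, 0 fibroblast markers were called higher by limma and 3 lower (Dpt, Clec3b and Pi16). Among 4 tested tendon and ligament markers, 2 were higher and 2 lower in calvaria, and 4 were higher in mandible (sums 1105 to 1120, 1346 to 1502 and 472 to 554), and Scx lay below the filter on signal. Tnmd made up most of the calvaria sum and was called lower in mandible than in calvaria. Thbs4, most of the mandible sum, and Kera were called higher there, and Mkx was not called. The part of these cells in the differences of the elastic fibre genes was not tested.

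All 7 tooth markers were higher in mandible than in both other sites, with a sum of 53071 to 53392 in mandible, 43.8 to 76.2 in calvaria and 81.7 to 93.9 in ulna. All 5 epithelial markers were higher in mandible than in ulna and 4 than in calvaria, with a sum of 3624 to 3674 in mandible and at most 173 elsewhere. Of 4 tested cartilage markers, 4 were higher in mandible than in ulna and 2 in calvaria, with sums of 1020 to 1161 in mandible, 186 to 244 in calvaria and 87.5 to 133 in ulna. The part of tooth, epithelium and cartilage in the mandible values of Fbn2 and Thsd4 was not tested.

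Of 6 meningeal markers, Ptgds (5.48), Cldn11 (3.53) and Crabp2 (2.09) were higher in calvaria than in ulna. Slc6a13 (-0.21), Slc6a20a (-0.72) and Aldh1a2 (-0.02) were not called there. Cldn11 passed the filter on signal through calvaria alone and Crabp2 through mandible alone, so their sizes are not exact. The signal of Crabp2 was 16.2 and 27.0 in calvaria, 287 and 283 in mandible, and 2.74 and 7.97 in ulna. The sum of the 6 markers was 1636 to 2188 in calvaria, 476 to 517 in mandible and 255 to 309 in ulna. Ptgds, a meningeal prostaglandin synthase, made up most of it in calvaria, with signals of 1916 and 1406 there, 42.8 and 48.6 in mandible, and 41.2 and 29.5 in ulna. Without Ptgds the sum of the other 5 was 231 to 271 in calvaria, 428 to 474 in mandible and 225 to 268 in ulna, with Crabp2 higher in mandible than in calvaria (3.73). The part of meninges in the signal of Mfap4 was not tested.

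Elastin is abundant in vessel walls. Of 4 tested smooth muscle markers 0 were called by limma in any comparison (3, 3 and 2 had an unadjusted p under 0.05 in calvaria against ulna, mandible against ulna and mandible against calvaria), with sums of 1968 to 1988 in calvaria, 1794 to 1830 in mandible and 1252 to 1374 in ulna, and Cnn1 and Lmod1 lay under the array median at all sites. Acta2, a smooth muscle actin, passed the adjusted p under 2-fold in all 3 comparisons (0.69, 0.39 and -0.30), and Tagln, an actin-binding protein, in the comparisons with ulna (0.48 and 0.66). Eln, also under 2-fold, differed by 0.75, 0.53 and -0.22. Myh11 (-0.63, 0.05 and 0.68) and Smtn (-0.37, -0.44 and -0.06) did not pass the adjusted p. Of 5 endothelial markers 1 was higher in each skull site than in ulna (sums 541 to 613, 703 to 745 and 392 to 426). Skeletal muscle markers, 6 of 6 of which were lower in calvaria than in ulna and 1 of which was lower in mandible, summed to 3630 to 3753, 28594 to 28714 and 32032 to 32533. Their part in the values of Eln was not tested.

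For each gene, the tested genes with the most similar pattern were found by the Euclidean distance between log2 values centred over the 6 arrays, as a description. Fbln1 lay nearest to Fstl1 (0.145) and Col3a1 (0.214), Fbln2 to Itga8 (0.178), Mfap2 to Ext1 (0.135) and Mfap5 to Txndc12 (0.223). Eln lay nearest to Dock1 (0.0897) and Emilin1 to Tvp23a (0.363). Fbln5, which differed little over the arrays, lay nearest to the ribosomal protein gene Rpl38 (0.0627). The nearest genes to Fbn2 were farther away, with Alx1 at 0.615, Cfap69 at 0.744 and Hapln1 at 0.769. Those to Mfap4 were farther still, with Neurod1 at 1.48, so no gene tested lay as close to Mfap4 as the nearest genes of the others did to them. The distance is not scaled to the spread of a gene, and Fbn2 and Mfap4 have signals under the array median, where log2 values are not exact.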

How the data were processed

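Total RNA of bone ground in liquid nitrogen was labelled in 1 cycle and hybridised to 6 arrays. The authors deposited MAS5 signal, an intensity for each of 45101 probe sets, per the labels and the submitters' processing notes, scaled to a 2% trimmed mean of 100. Detection calls were not used here. Array number limits the precision.

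Probe sets were named from the platform annotation (34958 with 1 symbol, 932 with several, 9211 with none), without the 64 control probe sets. Signals were divided by the median of their array and log2 taken with no offset. The filter kept 25233 probe sets (55.95%), those over that median on 2 or more of the 6 arrays. A mean for each site was estimated in R 4.3.3 by limma 3.58.1 with a variance trend (residual degrees of freedom 3, prior 7.67). P-values were adjusted by Benjamini-Hochberg over all tested probe sets, and a call needed an adjusted p under 0.05 and 2-fold. The median standard deviation within a site was 0.194 on the log2 scale. The fit was tested on simulated data.

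Named are all members, of each further list up to 4 called genes with the largest change in a comparison (where none was called, the 2 of highest mean), markers, and the 3 nearest genes of each member, of which some are given. Atp7a, Mmrn2, Hspg2, Elane, Ctss, Ltbp1, Tgfb1 and Itgav were named after their values were seen. So were Emilin2, Itgb3, Prtn3 and Ctsl in calvaria and Loxl1 and Loxl3 in mandible. The members and lists were chosen with earlier results of these data known. Alternatives were the deposited scale, quantile normalization, 75th percentile scaling, no filter and a stricter filter, an offset of 0.25, no trend, only the arrays compared, a replicate block, each array left out, the adjusted p alone and the probe set of largest change. The labels do not say whether replicate numbers pair the arrays, and the main fit did not pair them. Promoter windows came from RefSeq. Figures were made with matplotlib 3.10.9 (Python 3.11.15).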

Additional observations from a re-analysis of the deposited data

How the results depend on the processing

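The 6 genes higher in calvaria than in ulna ranged from 6 to 7 over the alternatives, the 6 higher in mandible from 5 to 7, and 0 were lower in both under every alternative run. Between mandible and calvaria, the 1 gene higher became 2 with the adjusted p alone and ranged from 1 to 2 with 1 array left out, and the 1 lower became 0 without the variance trend and ranged from 0 to 1. Of the further elastic fibre genes, the 1 lower in calvaria than in ulna became 7 with the adjusted p alone and 3 with the probe set of largest change. The 3 higher in mandible than in calvaria became 8 and 7. The 4 lower there became 2 on the deposited scale, 2 with quantile normalization, 1 with 75th percentile scaling and 13 with the adjusted p alone, and ranged from 2 to 5 with 1 array left out.

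Signs turned only for small differences that were not called. Fbln5 in calvaria against ulna was 0.036 as deposited, 0.056 with quantile normalization, 0.016 with the 75th percentile and -0.083 to 0.0030 with 1 array left out, and in mandible against ulna 0.022, 0.053 and 0.0087 under the same scalings. Emilin1 in calvaria against ulna ran from -0.14 to 0.89 with 1 array left out. Between mandible and calvaria, Fbln1 was -0.52 with the probe set of largest change, Fbln2 was 0.012, 0.030 and 0.019 under these scalings and -0.12 to 0.067 with 1 array left out, and Mfap5 ran from -0.17 to 0.32. Over the 9 genes, 433 of 459 values kept their sign and their side of the threshold, 16 reversed, 8 lost the call (Emilin1 and Mfap4) and 2 gained it. Many of these values could not reverse. The filters, no trend, only the arrays compared and the replicate block leave the log2 difference as it is. So does leaving out an array of the third site. For the called values named among the further genes, 746 of 763 stayed called and 17 did not (Loxl4, Fbln7, Efemp1, Ltbp2, Itgb3 and Mmp9). The cause was not tested.

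The replicate block changed 0 calls, with 6 genes higher in calvaria than in ulna under it. The log2 difference of replicate 1 minus replicate 2 was correlated between pairs of sites across tested probe sets. These correlations lay between -0.0123 and 0.00585. Signals under the array median limit the sizes given for Fbn2, Mfap4, Loxl4, Hmcn1, Cldn11, Crabp2 and the second probe set of Mfap2.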
